A study of Mus musculus with 18 samples.

Results

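Toll-like receptors are membrane proteins that detect molecules of microbes and of damaged cells, and the 10 receptors described here were taken by symbol from a table of 24419 genes: Tlr1, Tlr2, Tlr4, Tlr5 and Tlr6, which work at the cell surface, and Tlr3, Tlr7, Tlr8, Tlr9 and Tlr13, which work in endosomes. Their mRNA was measured by RNA-seq in hearts of C57BL/6 mice of 8 weeks after acute myocardial infarction (AMI), with 3 mice in each of 6 groups. All mice had been anaesthetised with sodium pentobarbital. The control mice are the sham mice of the study. In the other groups the proximal left anterior descending coronary artery was ligated, and the infarcted left ventricle was taken after 10 min, 1 h, 6 h, 24 h or 72 h. The heart was sampled as bulk tissue, so that more cells of a type and more RNA per cell cannot be told apart, and replicates are separate mice of the same time point.

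Surface receptors bind lipids, lipoproteins and protein, and endosomal receptors bind nucleic acids that reach the endosome. Most of them signal through the adaptor MyD88 to NF-kappaB and inflammatory cytokines, Tlr3 signals through TRIF (Ticam1) to interferon genes, and Tlr4 uses both adaptors. In the heart these receptors are known from resident and infiltrating leukocytes, and some of them, Tlr3 and Tlr4 included, also from cells of the tissue itself.

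Values are FPKM, counts of fragments scaled by transcript length and by the mapped fragments of the library, which can be compared between genes. Their sum per mouse was between 542418 and 600467, and no counts were given, so the number of fragments behind a low value is unknown. The depth relative to the first sham mouse, estimated from the lowest FPKM, ran from 0.813 to 1.32. The heart label was met by 8 cardiomyocyte markers, which together had 55764.6 to 59296.2 FPKM in the sham mice and 20429.4 to 25375.2 FPKM at 72 h. Fits of 2 groups at a time with limma on log2(FPKM + 1) gave log2 fold changes with their standard error (SE), and "rose" or "called" stands for a Benjamini-Hochberg adjusted p under 0.05 over all genes tested. These fold changes understate the change of low genes, and folds of mean FPKM are given beside them. All 5 comparisons with sham share the same 3 sham mice. Over all genes tested, the log2 fold change had a median of 0.13 at 24 h and 0.29 at 72 h, and of 0.01 and 0.03 after median-of-ratios scaling.

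Promoter windows of RefSeq (GRCm38.p6), from 250 bases before to 50 bases after a start site, were given for 8 of the 10 receptors, Tlr4 and Tlr7 being the others. The windows of Tlr2, Tlr3 and Tlr9 are printed because these receptors stand for the time courses described below, a surface receptor with an early mean rise, the receptor with the smallest fold among those tested and an endosomal receptor of 72 h. Capitals mark every match, on either strand, of the PU box (GAGGAA, the core bound by the myeloid factor PU.1), the core of interferon regulatory factor sites (AANNGAAA), the kappaB site and the AP-1 site (TGANTCA).
Tlr2, chr3:83841559-83841858, minus strand: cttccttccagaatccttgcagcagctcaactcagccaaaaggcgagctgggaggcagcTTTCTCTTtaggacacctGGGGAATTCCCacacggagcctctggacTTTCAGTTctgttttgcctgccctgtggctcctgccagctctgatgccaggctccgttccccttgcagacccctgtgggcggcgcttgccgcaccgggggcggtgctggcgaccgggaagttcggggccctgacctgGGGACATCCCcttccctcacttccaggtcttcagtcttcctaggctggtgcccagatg
Tlr3, chr8:45410331-45410630, minus strand: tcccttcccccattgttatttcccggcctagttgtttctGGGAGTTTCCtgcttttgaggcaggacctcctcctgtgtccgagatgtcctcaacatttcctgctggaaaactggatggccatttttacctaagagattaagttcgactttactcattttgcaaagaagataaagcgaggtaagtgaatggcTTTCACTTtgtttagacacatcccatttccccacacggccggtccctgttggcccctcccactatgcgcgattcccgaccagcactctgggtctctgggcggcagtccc
Tlr9, chr9:106222348-106222647, plus strand: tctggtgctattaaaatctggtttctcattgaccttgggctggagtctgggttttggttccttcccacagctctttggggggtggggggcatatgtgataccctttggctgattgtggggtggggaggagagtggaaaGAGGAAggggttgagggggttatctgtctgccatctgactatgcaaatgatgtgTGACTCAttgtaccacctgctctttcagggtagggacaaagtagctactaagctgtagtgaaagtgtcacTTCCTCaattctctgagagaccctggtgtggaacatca
The kappaB site matched 3 times in the window of Tlr2, with a pair of matches that overlap, and 1 time in that of Tlr3, and in no window of the other receptors. It was in 8.46% of all 32851 windows. A PU box was in windows of Tlr1, Tlr8, Tlr9 and Tlr13, against 28.3% of all windows. The interferon regulatory factor core was in windows of Tlr1, Tlr2, Tlr3 and Tlr6, against 23.9%, and the AP-1 site was in the window of Tlr9, against 7.81%. Tlr5 had no match. Such matches describe the letters only.

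In the sham heart Tlr3 and Tlr4 were the receptors with the highest level. Tlr3 had 3.10, 2.66 and 3.63 FPKM in the 3 sham mice, and Tlr4 had 2.67, 2.81 and 3.60 FPKM, so that these neighbours overlapped. Tlr2 followed at 0.992, 1.09 and 0.909 FPKM, apart from both. The other 7 receptors had group means from 0.160 FPKM (Tlr6) to 0.558 FPKM (Tlr9), and neighbours in their order overlapped. The level in sham mice bears on the tests, because a gene was tested when it reached 1 FPKM in at least 1 of 18 mice, which 13333 genes and 9 of the 10 receptors did. Tlr1, Tlr6, Tlr8, Tlr9 and Tlr13 reached it only in mice of 6 h or later and Tlr7 only in AMI mice, so counts over tested receptors cannot be read as support for a rise. Tlr5 never reached it.

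At 10 min and 1 h none of the 9 tested receptors was called in limma, with 2 and 1 at an unadjusted p under 0.05 and higher mean. Of all genes tested, 1955 of 13297 at 10 min and 1673 of 13300 at 1 h had an unadjusted p under 0.05. At 10 min 0.248% of all genes tested were called higher and 0.0978% lower, and at 1 h 0.669% and 0.0526%. Tlr7 was the receptor whose AMI mice all lay above the sham mice at 10 min and at 1 h, which 12.2% and 7.4% of all genes did. Its sham mice had 0.358, 0.595 and 0.627 FPKM, its 10 min mice 0.776, 0.698 and 0.814 FPKM and its 1 h mice 1.36, 1.07 and 0.699 FPKM. The difference at 1 h was 0.41 on the log2 scale (SE 0.13) with an unadjusted p of 0.0152 and an adjusted p of 0.287 in limma.

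**Figure D1:**
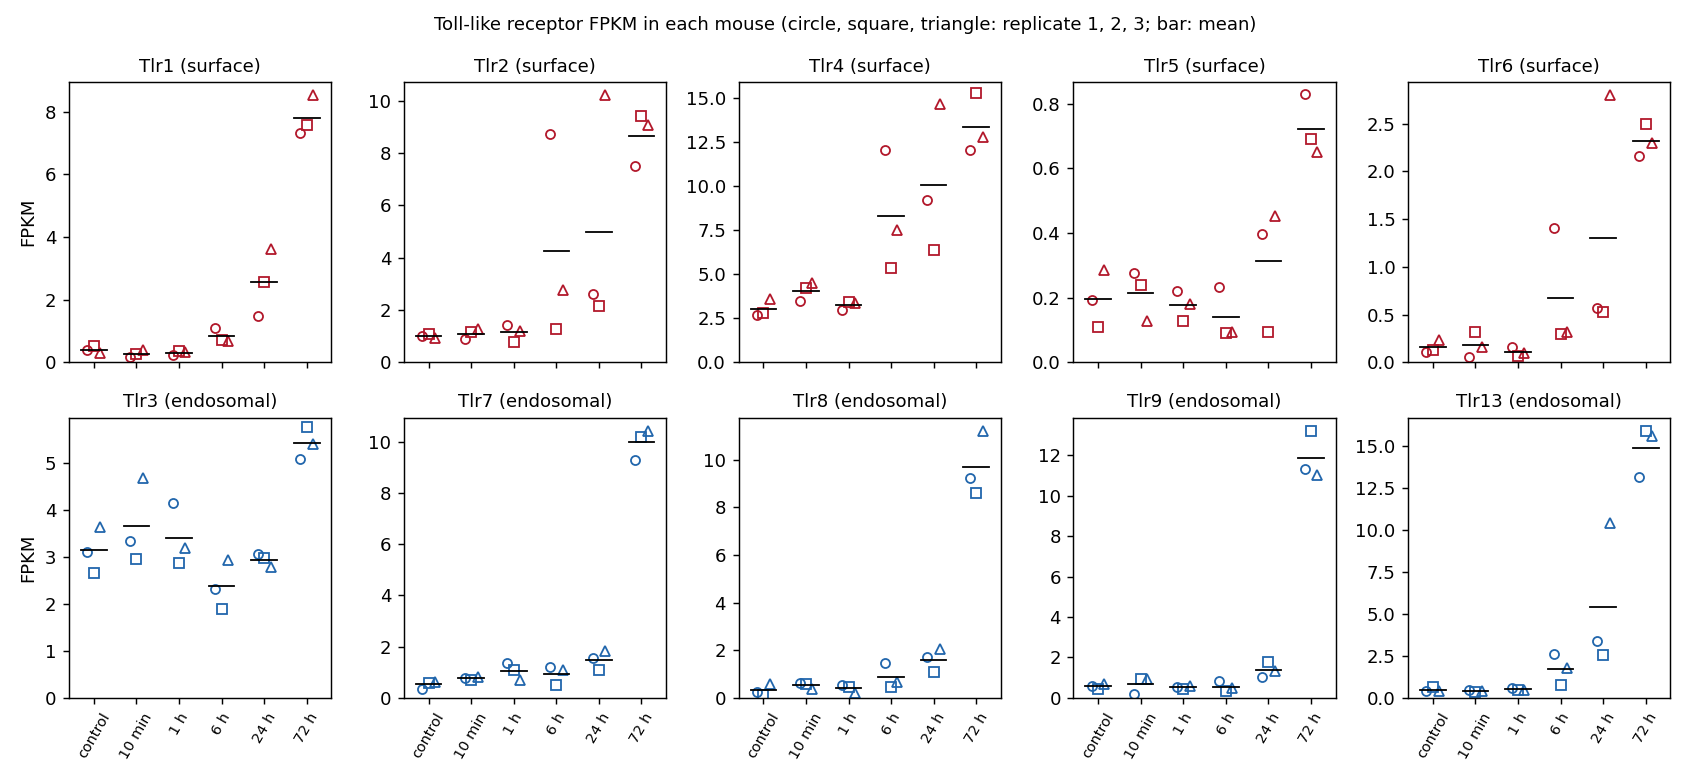
FPKM (vertical axis, from 0, with its own range in each panel) of the 10 receptors in each of 18 mice by group (horizontal axis), surface receptors above and endosomal receptors below; symbols are mice and bars are means of 3. Apart from Tlr3 and Tlr4, levels stayed at or below 1.44 FPKM to 1 h, the 6 h and 24 h mice of Tlr2, Tlr4 and Tlr6 spread widely, and Tlr7, Tlr8 and Tlr9 were high at 72 h, between 8.61 and 13.2 FPKM.

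Tlr4, the receptor of lipopolysaccharide (chr4:66827584-66930284, plus strand), was higher in every 6 h mouse than in any sham mouse. Its 6 h mice had 12.1, 5.34 and 7.53 FPKM, its 24 h mice 9.19, 6.40 and 14.7 FPKM and its 72 h mice 12.1, 15.3 and 12.8 FPKM. The first 6 h mouse and the third 24 h mouse stood above the others of their groups, and no mouse of these times reached down to the highest sham value. Tlr4 rose at 6 h by 1.15 (SE 0.25, adjusted p = 0.0155), at 24 h by 1.40 (SE 0.26, adjusted p = 0.00994) and at 72 h by 1.84 (SE 0.12, adjusted p = 1.55e-06), or 2.75-fold, 3.33-fold and 4.42-fold in mean FPKM. The call at 6 h was lost without the first sham mouse (adjusted p = 0.0638) or the second (0.0599).

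Tlr2, which pairs with Tlr1 or Tlr6 to bind lipoproteins (chr3:83836272-83841767, minus strand), spread widely between mice at 6 h and 24 h. Its 6 h mice had 8.73, 1.26 and 2.75 FPKM and its 24 h mice 2.59, 2.14 and 10.2 FPKM. All of them lay above the 3 sham mice, but a single mouse of each group was more than 3 times above its neighbours. The log2 fold change was 1.12 at 6 h (SE 0.46, adjusted p = 0.107) and 1.33 at 24 h (SE 0.45, adjusted p = 0.0538), neither of them called. Without the third 24 h mouse, the highest, the difference at 24 h was smaller and passed the test (0.75, adjusted p = 0.00319), and it also passed without the second (adjusted p = 0.0413). The 6 h difference passed without the second 6 h mouse (1.60, adjusted p = 0.0255). At 72 h Tlr2 had 7.50, 9.41 and 9.05 FPKM and rose by 2.27 (SE 0.10, adjusted p = 1.82e-07), 8.67-fold in mean FPKM.

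Tlr6 (chr5:64952031-64960097, minus strand), the partner of Tlr2 for diacylated lipoproteins, followed Tlr2 across mice. It had 1.40, 0.291 and 0.318 FPKM at 6 h, 0.571, 0.526 and 2.80 FPKM at 24 h and 2.16, 2.50 and 2.30 FPKM at 72 h, against 0.110, 0.132 and 0.237 FPKM in sham mice. The first 6 h and the third 24 h mouse were again high, and no mouse from 6 h on overlapped the sham mice. It rose at 72 h by 1.52 (SE 0.09, adjusted p = 1.04e-06), while 0.46 at 6 h (adjusted p = 0.164) and 0.85 at 24 h (adjusted p = 0.0849) were not called. Without the third 24 h mouse the 24 h difference was 0.42 with an adjusted p of 0.0171.

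Tlr1 (chr5:64924679-64933563, minus strand), the partner of Tlr2 for triacylated lipoproteins, climbed at each later time. It had 0.379, 0.504 and 0.307 FPKM in sham mice, 1.10, 0.711 and 0.676 FPKM at 6 h, 1.49, 2.55 and 3.62 FPKM at 24 h and 7.34, 7.56 and 8.52 FPKM at 72 h. From 6 h on, no mouse overlapped those of the time before or the sham mice. It rose by 0.38 at 6 h (SE 0.11, adjusted p = 0.0429), 1.3 at 24 h (SE 0.22, adjusted p = 0.00745) and 2.66 at 72 h (SE 0.09, adjusted p = 6.19e-08), 19.7-fold in mean FPKM at 72 h. The 6 h call was lost without any of the 3 sham mice or without the first or second 6 h mouse (adjusted p from 0.0516 to 0.138). Tlr1 and Tlr6 lie next to each other and their transcripts share an identical stretch of 229 bases, with 7.89% of the 100-base windows of Tlr1 found in Tlr6, so fragments from it could be counted for either gene. No other pair of the 10 shared more than 18 bases.

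Tlr5 (chr1:182954788-182976044, plus strand), the receptor of bacterial flagellin, stayed the lowest of the 10 at 6 h, 24 h and 72 h. It had 0.194, 0.110 and 0.284 FPKM in sham mice and 0.830, 0.690 and 0.651 FPKM at 72 h. The 72 h mice lay above all other mice, at a level under the filter. Tested without the filter, Tlr5 rose at 72 h by 0.53 (SE 0.07, adjusted p = 0.000582).

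Tlr3, the receptor of double-stranded RNA (chr8:45395665-45411080, minus strand), had the highest mean in sham mice and the smallest fold of mean FPKM at 72 h among the 9 tested receptors, 1.73-fold. Its 6 h mice had 2.31, 1.88 and 2.93 FPKM, its 24 h mice 3.06, 2.97 and 2.77 FPKM and its 72 h mice 5.08, 5.76 and 5.39 FPKM. The 6 h and 24 h mice overlapped the sham mice, and the 72 h mice lay above them all. The log2 fold change was -0.30 at 6 h (SE 0.15, adjusted p = 0.163) and -0.06 at 24 h (95% interval -0.34 to 0.21, adjusted p = 0.689), and Tlr3 rose by 0.64 at 72 h (SE 0.10, adjusted p = 0.000448). After quantile normalization, which shifts the median of all genes at 72 h to -0.12, the 72 h value was 0.13 and was not called (adjusted p = 0.247). An antisense gene, Gm45542, shares 381 exon bases with Tlr3, and the sources used here do not say whether the libraries keep strand. Without it, reads of the 2 there cannot be told apart.

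Tlr7 (chrX:167304929-167330558, minus strand) and Tlr8 (chrX:167242696-167264329, minus strand), neighbours on the X chromosome that are known as receptors of single-stranded RNA and its breakdown products, were first called at 24 h and rose further at 72 h. Tlr7 had 1.21, 0.516 and 1.09 FPKM at 6 h, 1.56, 1.07 and 1.82 FPKM at 24 h and 9.31, 10.2 and 10.4 FPKM at 72 h. Tlr8 had 0.251, 0.135 and 0.597 FPKM in sham mice, 1.46, 0.450 and 0.662 FPKM at 6 h, 1.69, 1.06 and 2.05 FPKM at 24 h and 9.24, 8.61 and 11.2 FPKM at 72 h. Both overlapped sham at 6 h and lay above it at 24 h and 72 h. At 24 h Tlr7 rose by 0.69 (SE 0.15, adjusted p = 0.0138) and Tlr8 by 0.97 (SE 0.19, adjusted p = 0.0113). Without the first sham mouse both calls at 24 h were lost (adjusted p = 0.0603 for Tlr7 and 0.0514 for Tlr8), and that of Tlr7 also without the second (0.0501). At 72 h they rose by 2.85 (SE 0.10, adjusted p = 5.46e-08) and 3.02 (SE 0.14, adjusted p = 3.01e-07), 19.0-fold and 29.6-fold in mean FPKM. The ratio of Tlr8 to Tlr7 was 0.627 ± 0.368 (SD, n = 3) in sham mice and 0.970 ± 0.117 at 72 h.

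Tlr9, the receptor of unmethylated CpG DNA (chr9:106222598-106226883, plus strand), had the largest difference between 24 h and 72 h. It had 0.564, 0.440 and 0.668 FPKM in sham mice, 0.806, 0.335 and 0.482 FPKM at 6 h, 1.05, 1.78 and 1.31 FPKM at 24 h and 11.3, 13.2 and 11.0 FPKM at 72 h. The 6 h mice overlapped the sham mice and the 24 h mice lay just above them. The log2 fold change was -0.02 at 6 h (95% interval -0.32 to 0.27, adjusted p = 0.899), and Tlr9 rose by 0.60 at 24 h (SE 0.14, adjusted p = 0.0173) and 3.04 at 72 h (SE 0.10, adjusted p = 4.06e-08), 21.3-fold in mean FPKM. The call at 24 h was lost without the first (adjusted p = 0.0647) or second sham mouse (0.0704).

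Tlr13, a receptor of bacterial ribosomal RNA (chrX:106143204-106160493, plus strand), had the largest fold of the 9 tested receptors and the highest mean at 72 h. It had 0.379, 0.650 and 0.402 FPKM in sham mice, 2.59, 0.734 and 1.77 FPKM at 6 h, 3.36, 2.52 and 10.4 FPKM at 24 h and 13.2, 15.9 and 15.6 FPKM at 72 h. Every mouse from 6 h on lay above the sham mice, and the first 6 h and the third 24 h mouse were the highest of their groups. It rose by 0.81 at 6 h (SE 0.25, adjusted p = 0.0454), 1.93 at 24 h (SE 0.41, adjusted p = 0.0140) and 3.43 at 72 h (SE 0.11, adjusted p = 3.49e-08), 31.2-fold in mean FPKM. The 6 h call was lost without any sham mouse or without the first or the third 6 h mouse (adjusted p from 0.0893 to 0.134), and the 24 h call without the first (0.0583) or the third sham mouse (0.0518).

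Of the 9 tested receptors, 3 were called higher at 6 h (Tlr1, Tlr4 and Tlr13), 6 at 24 h (Tlr1, Tlr4, Tlr7, Tlr8, Tlr9 and Tlr13) and 9 at 72 h, and none was called lower. Of all genes tested, 11.6% were called higher and 16.8% lower at 6 h. The shares were 26.2% higher with 11.4% lower at 24 h, and 53.1% higher with 24.2% lower at 72 h. This balance depends on the scaling. After 6 h the split of calls, higher against lower, was 1543 to 2233 as deposited, 1922 to 1586 with median-of-ratios scaling and 1651 to 2147 with quantile normalization. After 24 h it was 3496 to 1516, 2460 to 2426 and 2117 to 2746 in the same order. After 72 h it was 7081 to 3226, 5208 to 4792 and 4278 to 5787. Receptors whose AMI mice all lay above all sham mice were Tlr1, Tlr2, Tlr4, Tlr6 and Tlr13 at 6 h, these with Tlr7, Tlr8 and Tlr9 at 24 h, and all 9 at 72 h. The shares of all genes that did so were 18.6%, 39.3% and 55.1%. The median log2 fold change of the 4 tested surface receptors was 0.79, 1.32 and 2.05 at these times, and that of the 5 endosomal receptors was 0.33, 0.69 and 3.02. Over all genes tested it was -0.08, 0.13 and 0.29. Tlr1, Tlr6, Tlr7, Tlr8, Tlr9 and Tlr13 passed the filter only through AMI mice, so these medians cannot be read as support for a rise. The surface median leaves out Tlr5, which was under the filter. Its mean was 0.710-fold, 1.61-fold and 3.69-fold that of sham at these times. Tlr11 and Tlr12, the other mouse Toll-like receptors of the table, stayed at or below 0.168 FPKM in every mouse and were not tested.

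Neighbouring times were also compared directly. Between 10 min and 1 h no receptor was called in limma, with 1, Tlr4, lower at an unadjusted p of 0.0451, against 0.391% of all genes called higher. Of all 13298 genes tested there, 28 were called lower and 1739 had an unadjusted p under 0.05, and the split of 52 higher to 28 lower became 60 to 18 with median-of-ratios scaling and 63 to 27 with quantile normalization. From 1 h to 6 h, Tlr1 (0.49, SE 0.11, adjusted p = 0.0251) and Tlr4 (1.07, SE 0.24, adjusted p = 0.0232) rose, against 9.32% of all genes, a split of 1241 higher to 1490 lower that became 1523 to 1169 with median-of-ratios scaling and 1318 to 1503 with quantile normalization. Both calls were lost without any of the 3 mice of 1 h, with adjusted p from 0.0680 to 0.0853. From 6 h to 24 h, Tlr1 (0.92, SE 0.23, adjusted p = 0.0401) and Tlr9 (0.63, SE 0.17, adjusted p = 0.0457) rose, against 12.5% of all genes. Both were lost without any of the 3 mice of 6 h or without the second or the third of 24 h, with adjusted p from 0.0650 to 0.146. Both were also lost under median-of-ratios scaling (adjusted p = 0.0746 for Tlr1 and 0.0959 for Tlr9) and quantile normalization (0.0862 and 0.115). Over all genes the 1664 calls higher and 258 lower of this interval became 403 and 368, and 366 and 271, with these scalings.

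From 24 h to 72 h, 6 of 9 rose, against 29.7% of all genes, and these were the 5 endosomal receptors and Tlr1. The split over all genes was 3963 higher to 1799 lower, 3159 to 2693 with median-of-ratios scaling and 2776 to 3424 with quantile normalization. Tlr9 rose by 2.44 (SE 0.14, adjusted p = 4.27e-05), Tlr7 by 2.16 (SE 0.14, adjusted p = 5.33e-05) and Tlr8 by 2.05 (SE 0.17, adjusted p = 0.000141). The 3 had 24 h means between 1.38 and 1.60 FPKM and rose 8.57-fold, 6.75-fold and 6.06-fold in mean FPKM. Tlr13 rose by 1.50 (SE 0.40, adjusted p = 0.0196), a call lost without the first or second 24 h mouse or the second or the third 72 h mouse (adjusted p from 0.0527 to 0.0723). Tlr1 rose by 1.35 (SE 0.22, adjusted p = 0.00242) and Tlr3 by 0.70 (SE 0.10, adjusted p = 0.00155). Tlr2 (0.94, adjusted p = 0.128), Tlr4 (0.44, adjusted p = 0.207) and Tlr6 (0.67, adjusted p = 0.146) were not called, and without the third 24 h mouse they were, at 1.52, 0.72 and 1.10 (adjusted p = 7.80e-05, 0.00715 and 0.000199). The 2 classes were not apart in this interval, as the surface receptors Tlr1 (1.35) and Tlr2 (0.94) had larger estimates than the endosomal Tlr3 (0.70). A difference between the classes was not tested.

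**Figure D2:**
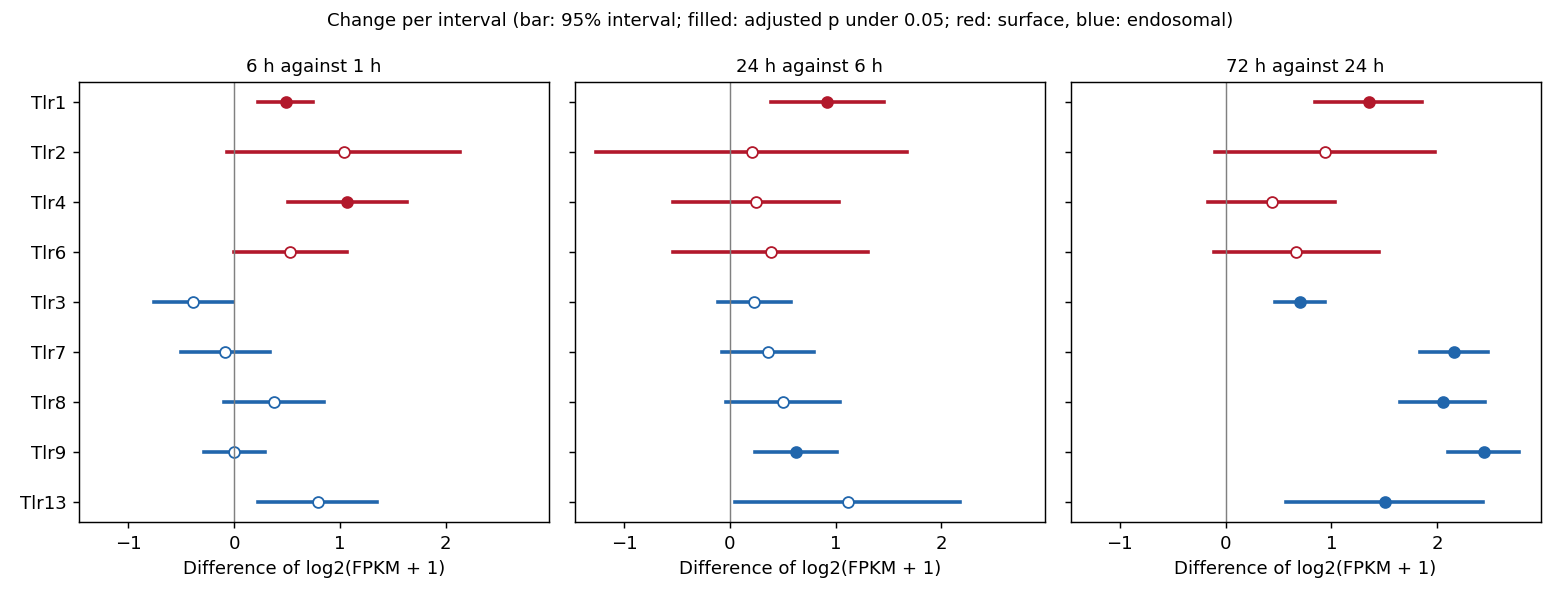
Difference of log2(FPKM + 1) (horizontal axis) between neighbouring times for the 9 tested receptors (vertical axis); points are limma estimates, bars unadjusted 95% intervals, filled points have an adjusted p under 0.05, red is surface and blue endosomal. Tlr7, Tlr8 and Tlr9 lie at 2.05 to 2.44 from 24 h to 72 h and at most at 0.63 in the earlier intervals.

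The share of the surface receptors was highest at 6 h and lowest at 72 h. The 10 receptors summed to 9.80 ± 1.27 FPKM (SD, n = 3) in sham mice, and to 11.8 ± 1.71 FPKM after 10 min, 10.8 ± 1.16 FPKM after 1 h, 20.6 ± 10.4 FPKM after 6 h, 32.1 ± 15.8 FPKM after 24 h and 84.7 ± 5.88 FPKM after 72 h. Surface receptors held 48.9 ± 1.87% of this sum in sham mice, 49.3 ± 3.11% in the 10 min mice, 46.1 ± 4.51% in the 1 h mice, 67.4 ± 5.91% in the 6 h mice, 58.6 ± 4.17% in the 24 h mice and 38.8 ± 0.840% in the 72 h mice. The 6 h mice (62.1% to 73.7%) and 24 h mice (55.5% to 63.4%) lay above all sham mice (47.4% to 51.0%), and the 72 h mice (38.3% to 39.8%) below them. Leaving out any mouse kept the mean share between 64.2% and 70.0% at 6 h, between 56.3% and 60.2% at 24 h and between 38.3% and 39.0% at 72 h. With 3 mice against 3 the smallest p of an exact permutation test is 0.1.

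Tlr4 alone held 30.8 ± 1.15% in sham mice, 41.7 ± 4.11% at 6 h and 15.8 ± 1.25% at 72 h. Tlr3 held 31.9 ± 2.69% of the sum in sham mice and 6.39 ± 0.167% at 72 h, where its own FPKM was higher than in sham mice. Tlr13 went from 4.97 ± 1.89% to 17.6 ± 0.570% and Tlr9 from 5.68 ± 0.761% to 14.0 ± 1.17%. At 72 h the order by mean FPKM was Tlr13, Tlr4, Tlr9, Tlr7, Tlr8, Tlr2, Tlr1, Tlr3, Tlr6 and Tlr5. The mice of Tlr13 and Tlr4, of Tlr4 and Tlr9, and of the run from Tlr7 to Tlr1 overlapped between neighbours, and the other neighbours were apart.

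**Figure D3:**
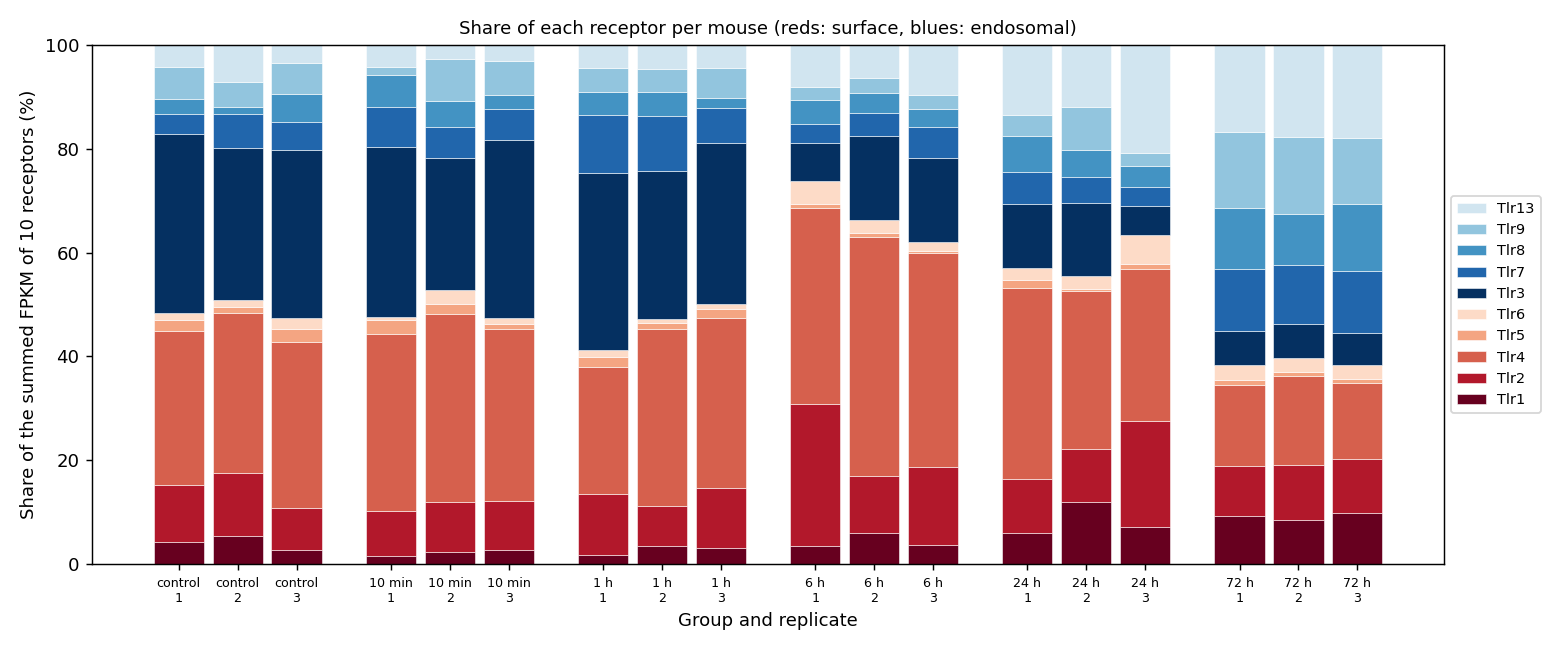
Share of each receptor in the summed FPKM of the 10 receptors (vertical axis, %) in each mouse (horizontal axis, by group and replicate), with surface receptors in reds at the bottom and endosomal receptors in blues on top. The red part widened at 6 h, to between 62.1% and 73.7%, and narrowed at 72 h, to between 38.3% and 39.8%.

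Pan-leukocyte genes also had higher mean levels at 6 h, 24 h and 72 h. Not every receptor did so, as Tlr3, Tlr5, Tlr7, Tlr8 and Tlr9 overlapped sham at 6 h, and Tlr3 and Tlr5 at 24 h. The 10 pan-leukocyte genes summed to 73.3 to 95.4 FPKM in sham mice and 93.8 to 306 at 6 h. They summed to 359.7 to 816 at 24 h and 1179 to 1361 at 72 h. At the 3 later times 5, 10 and 10 of these genes were called higher, against 11.6%, 26.2% and 53.1% of all genes tested. Neutrophil markers summed to 2.56 to 5.30 FPKM in sham mice, 119.6 to 1009.7 at 6 h, 45.7 to 1001 at 24 h and 57.1 to 70.3 at 72 h. Macrophage markers were at 286 to 334 FPKM in sham mice, 280.4 to 342 at 6 h, 417 to 499 at 24 h and 2298 to 2926 at 72 h. In the mice of 6 h the neutrophil sum was 1009.7, 119.6 and 382 FPKM and in those of 24 h 217, 45.7 and 1001 FPKM, highest in the first 6 h and the third 24 h mouse. In both groups 7 of the 10 receptors ordered the mice as this sum and the monocyte sum did (Tlr2, Tlr4, Tlr5, Tlr6, Tlr7, Tlr8 and Tlr13). Tlr1 was highest in the first 6 h and the third 24 h mouse as well. Monocyte markers, at 115.6, 53.4 and 87.0 FPKM at 6 h and at 216, 167 and 551 FPKM at 24 h, and pan-leukocyte genes, at 306, 93.8 and 168 FPKM and at 359.7, 389 and 816 FPKM, were highest in these mice too. The macrophage sum was not, at 308, 280.4 and 342 FPKM at 6 h and at 429.6, 499 and 417 FPKM at 24 h. No receptor followed the order of the pan-leukocyte or the macrophage sum in both groups. The monocyte list included the matrix genes Fn1 and Vcan. How many of all genes ordered the mice as the neutrophil sum did was not counted. In each of these groups none of the markers was at 0 in all mice. The part of cell numbers in the receptor levels was not tested.

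Each receptor was set against the geometric mean of the 10 pan-leukocyte genes in the same mouse, which was 3.63 ± 0.115 in sham mice, 9.81 ± 5.18 at 6 h, 24.4 ± 12.2 at 24 h and 57.9 ± 3.92 FPKM at 72 h. Per leukocyte gene level, Tlr13 at 72 h was 1.95-fold its sham value, Tlr9 1.34-fold and Tlr7 1.19-fold, each with all 72 h mice above all sham mice. For Tlr9 the lowest 72 h mouse was at 0.179 and the highest sham mouse at 0.177. For Tlr7 these were 0.170 and 0.167, so both gaps were narrow. The share of all genes apart from sham after the same division was not computed. Tlr8 (1.88-fold), Tlr1 (1.23-fold) and Tlr6 (0.919-fold) overlapped the sham mice. Tlr2 (0.542-fold), Tlr4 (0.278-fold), Tlr5 (0.235-fold) and Tlr3 (0.109-fold) lay below all sham mice. Where the groups did not overlap, the exact permutation test, 2-sided, gave p = 0.1, the smallest it can give here.

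The time course per leukocyte gene level differed between receptors. Tlr9 was below all sham mice at 6 h (0.373-fold) and 24 h (0.431-fold) and above them at 72 h. Tlr7 was at 0.694-fold at 6 h, overlapping sham, below it at 24 h (0.458-fold) and above it at 72 h. Tlr4 overlapped sham at 6 h (1.07-fold) and lay below it at 24 h (0.514-fold). These folds depend on the reference, and the macrophage markers had calls both higher and lower at 6 h, 24 h and 72 h. At 24 h, against the geometric mean of 12 macrophage markers, Tlr9 (1.75-fold), Tlr7 (2.0-fold) and Tlr4 (2.39-fold) lay above all sham mice instead of below. Against Ptprc alone all 3 overlapped sham at 24 h (0.619-fold, 0.681-fold and 0.791-fold). Tlr9 at 6 h overlapped sham against the macrophage markers (0.975-fold) and lay below it against Ptprc (0.375-fold). Against the macrophage markers, Tlr13 at 72 h was at 6.64-fold, Tlr8 at 6.40-fold, Tlr9 at 4.56-fold, Tlr4 at 0.953-fold and Tlr3 at 0.370-fold, and Tlr2 at 1.85-fold lay above sham instead of below. Against Ptprc alone, Tlr7 (1.38-fold) and Tlr9 (1.56-fold) overlapped sham at 72 h, and Tlr13 (2.32-fold) lay above. Tlr3 lay below sham with each of the 3 references at 6 h, 24 h and 72 h. All 3 references had higher means at 24 h and 72 h than in sham mice. A gene that rose less than they did is lowered by this division. The 3 references are thus not separate support, and the share of all genes below sham was not computed.

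**Figure D4:**
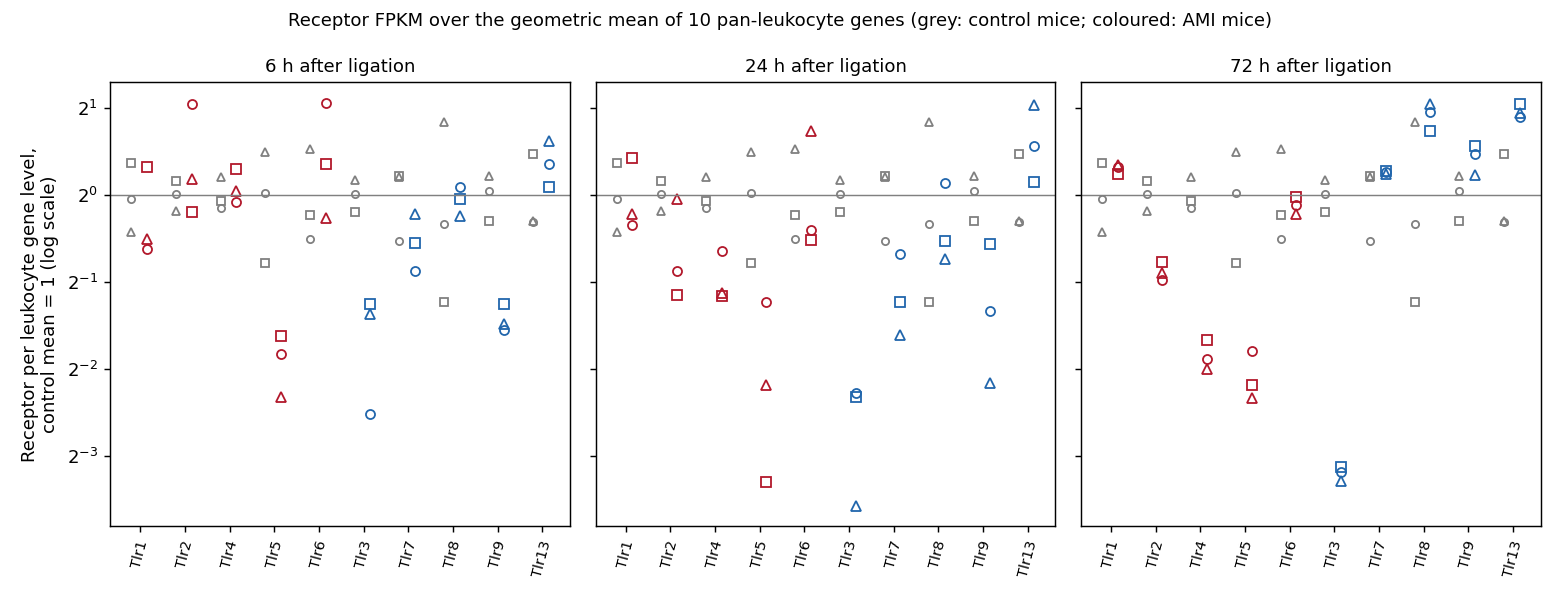
Receptor FPKM divided by the geometric mean of 10 pan-leukocyte genes, relative to the sham (control) mean (vertical axis, log scale), for each receptor (horizontal axis) at 6 h, 24 h and 72 h; grey symbols are sham mice, coloured symbols AMI mice, red surface and blue endosomal. Tlr3 sits below the sham mice in each panel, down to 0.109-fold on average at 72 h, where Tlr13 sits above them at 1.95-fold.

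Across the 18 mice the receptors fell into similar profiles, given here as Pearson correlations of log2(FPKM + 1) that describe these mice and share their time course. The highest were those of Tlr7 with Tlr8 (0.98), Tlr1 with Tlr13 (0.98) and Tlr2 with Tlr6 (0.97). Tlr3 was least like the rest, from 0.29 with Tlr4 to 0.76 with Tlr9. Of all other tested genes, those most like Tlr7 were Lipa, a lysosomal lipase (r = 0.99), Cela1 and Itga4, an integrin subunit of leukocytes. Tlr9 was most like Mdfic (r = 0.99), Bub1b, a mitotic checkpoint kinase, and Cdca7l. Tlr13 was most like Alcam, an adhesion molecule (r = 0.995), Rab32, a small GTPase of lysosome-related organelles, and Mgat2, and Tlr1 was most like Vill (r = 0.995), Cndp2 and Nap1l1.

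Among the surface receptors, Tlr2 was most like Clec7a, the beta-glucan receptor Dectin-1 (r = 0.98), Gna13 and Rhoh, and Tlr4 was most like Itgb3, an integrin subunit (r = 0.98), Mapk6 and Cd44, the hyaluronan receptor. Tlr6 was most like Mefv, which encodes pyrin (r = 0.99), Fgd3 and Selplg, the ligand of P-selectin. Tlr8 was most like Glipr1 (r = 0.99), Hpse, which encodes heparanase, and Sp140. Tlr3 was most like Atm, the kinase of the DNA damage response (r = 0.93), Ptp4a2 and Arsk.

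The counts of the pathway lists that follow stand against 11.6%, 26.2% and 53.1% of all genes called higher at 6 h, 24 h and 72 h and 16.8%, 11.4% and 24.2% called lower. Coreceptors deliver ligands to the surface receptors. Of 6, 3 rose at 6 h (Cd14, Lbp and Cd36), 3 at 24 h (Cd14, Cd180 and Ly86) and 5 at 72 h, with 1 lower at 72 h. Cd14, which hands lipopolysaccharide to Tlr4, was called higher from 1 h on (0.77, SE 0.09, adjusted p = 0.00775). It had 4.50 to 5.35 FPKM in sham mice and 39.2 to 40.2 FPKM at 72 h. In order of level, its 6 h mice had 15.8, 34.8 and 109.7 FPKM (2.78, SE 0.59, adjusted p = 0.0144) and its 24 h mice 16.7, 25.0 and 150.8 FPKM, so that the 24 h mean of 64.2 FPKM rested on 1 mouse. Ly96 (MD-2), the subunit that binds the lipid with Tlr4, was at 2.66, 2.59 and 3.50 FPKM in sham, 6 h and 24 h mice and rose at 72 h, to 6.68 (1.07, SE 0.14). Ly86 and Cd180, which form a complex that modulates lipopolysaccharide signalling, had the largest rises at 72 h, at 4.15 (SE 0.09) and 3.70 (SE 0.10), and Cd36, a fatty acid transporter that is also a coreceptor of Tlr2 and Tlr6, fell by 0.92 (SE 0.08) from 401 to 213 FPKM. The median of the 6 was 1.93 at 72 h, against 0.29 over all genes.

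The endosomal receptors need Unc93b1, the chaperone that carries them from the endoplasmic reticulum. Its level was 13.1 FPKM in sham mice, 6.85 at 6 h, 20.4 at 24 h and 104 at 72 h. It fell at 6 h by 0.84 (SE 0.13, adjusted p = 0.00535) and rose at 24 h by 0.59 (adjusted p = 0.0306) and at 72 h by 2.89 (SE 0.13, adjusted p = 1.80e-07). Cnpy3, a cochaperone of the receptors, fell at 6 h by 0.35 and rose at 72 h by 0.77, and Lrrc59, which takes part in receptor export, rose at 6 h by 0.59. Slc15a3, a transporter of endolysosomes, rose at 24 h by 2.0 and at 72 h by 3.46. Of the 6 trafficking genes 1 rose and 2 fell at 6 h, 5 rose at 24 h and 6 at 72 h. The median of the 6 was -0.22, 0.74 and 1.71 at these times, against -0.08, 0.13 and 0.29 over all genes.

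Among the adaptors, Myd88 was alone in rising at 6 h, from 4.70 to 14.2 FPKM (1.41, SE 0.11, adjusted p = 0.000475), and stayed higher at 24 h (1.26) and 72 h (1.74). Ticam1, the adaptor of Tlr3 and Tlr4, was at 1.46 FPKM in sham mice and 1.82 at 6 h, not called, and rose at 24 h by 0.53 and at 72 h by 0.68. Pik3ap1, which links the receptors to phosphoinositide 3-kinase, had the largest rise at 72 h, by 2.84. Of 5 tested adaptors 1, 4 (Myd88, Ticam1, Ticam2 and Pik3ap1) and 5 rose at the 3 later times, and Sarm1 was below the filter.

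The 14 kinases and ligases that follow had a median log2 fold change of 0.00 at 6 h, 0.34 at 24 h and 0.49 at 72 h. At 6 h Irak2 rose (0.77, SE 0.19) and Ikbkg, the regulatory subunit of the IkappaB kinase complex, fell by 0.53 (SE 0.11). At 24 h 4 rose (Irak4, Traf3, Tab2 and Chuk), with the ubiquitin ligase Traf3 highest at 0.60, and at 72 h 9 rose, with the kinase Ikbke highest at 1.67. Irak1 fell at 24 h by 0.41 and at 72 h by 0.37. Of the 6 transcription factors, Rela, a subunit of NF-kappaB, rose at 6 h (0.56, SE 0.10), Irf5 at 24 h (1.75, SE 0.30) and all 6 at 72 h, with Irf5 highest (2.93, SE 0.08).

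Of 9 inhibitors of the pathway, 3 rose at 1 h, a time at which no receptor was called and 0.669% of all genes were called higher. Atf3, a repressor of cytokine genes, went from 2.31 FPKM in sham mice to 64.8 at 1 h (4.28, SE 0.18, adjusted p = 3.01e-05), 76.3 at 6 h, 19.7 at 24 h and 23.7 at 72 h. Nfkbia, the inhibitor that holds NF-kappaB in the cytoplasm, rose at 1 h by 1.20 and Tnfaip3, a ubiquitin editing enzyme, by 0.58. At 6 h 3 rose (Atf3, Nfkbia and Irak3) and Sigirr, a receptor of the family that restrains signalling, fell by 0.63. At 24 h Atf3 and Cyld were the 2 that rose, and at 72 h 6 rose and Tollip fell by 0.35. The 6 that rose at 72 h, of 9, stand beside 53.1% of all genes, and the median of the 9 was 0.59 at 6 h, 0.52 at 24 h and 0.50 at 72 h.

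Endogenous ligands, proteins from damaged or stressed tissue that have been described as activators of Tlr2 or Tlr4, rose in 6 of 10 genes at 6 h, 8 at 24 h and 9 at 72 h. S100a9 went from 2.72 FPKM in sham mice to 17.0 at 1 h, 382 at 6 h (6.24, SE 0.70), 302 at 24 h (5.39, SE 1.03) and 36.5 at 72 h. S100a8 and S100a9 are also neutrophil markers, whose sums are given above. Tnc, the matrix protein tenascin-C, was at 0.211 FPKM in sham mice and at 10.9, 35.3 and 119 at the 3 later times, and had the largest rise of the list at 72 h (6.58, SE 0.21). Hspd1, a mitochondrial chaperone, fell at 72 h by 0.79, from 667 to 387 FPKM. The median of the 10 was 1.80, 2.22 and 3.06 at 6 h, 24 h and 72 h, against -0.08, 0.13 and 0.29 over all genes.

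Genes known as outputs of the receptors were split into cytokines and enzymes, here called the MyD88 branch, and interferon-induced genes. These names label the lists only. Which receptor or adaptor acted on a gene was not tested, and MyD88 is not excluded for the interferon-induced genes. Of 7 tested cytokines and enzymes of the MyD88 branch, 4, 5, 4 and 6 rose after 1 h, 6 h, 24 h and 72 h. At 1 h 0.669% of all genes were called higher. Those of 1 h were Il6, Cxcl1, Cxcl2 and Ptgs2, those of 6 h also Il1b, and those of 24 h Il1b, Cxcl1, Cxcl2 and Ptgs2. Cxcl2, a neutrophil chemokine, went from 0.129 FPKM in sham mice to 5.41 at 1 h, 36.2 at 6 h (4.72, SE 0.54) and 63.5 at 24 h (4.18, SE 1.26), and was at 2.53 at 72 h. Its mean was thus higher at 24 h than at 6 h, but its log2 fold change was lower, with a larger SE. From 6 h to 24 h none of the 7 genes was called, against 12.5% of all genes called higher. Their median in this interval was -0.56, against 0.20 over all genes. Il1b had the largest rise of the list at 72 h (2.92, SE 0.16). Nos2, the inducible nitric oxide synthase, fell at 6 h by 0.66 (SE 0.13). Of 6 tested interferon-induced genes, none rose at 6 h in limma, where 1 was higher and 1 lower at an unadjusted p under 0.05. Of all 13321 genes tested there, 5673 had an unadjusted p under 0.05. Isg15 rose at 24 h (1.12, SE 0.37, adjusted p = 0.0491) and all 6 at 72 h. Cxcl10, an interferon-induced chemokine, was at 0.257 FPKM in sham mice and 11.9 at 72 h (3.36, SE 0.14), the largest rise of that list. The median of the interferon-induced genes was -0.02 at 6 h and 1.90 at 72 h, and that of the MyD88 branch 3.71 and 1.47.

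**Figure D5:**
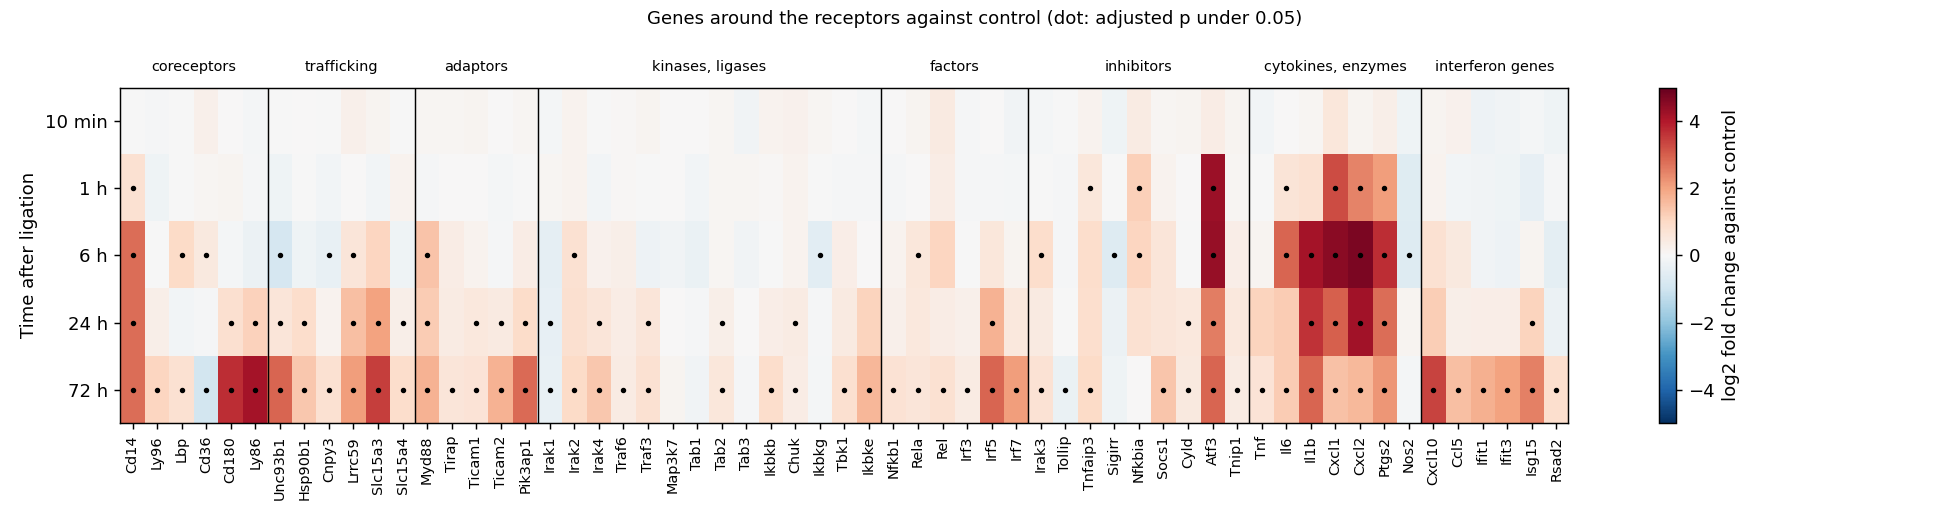
Log2 fold change against sham (control) of the tested genes of 8 lists around the receptors (horizontal axis) at 5 times after ligation (vertical axis); red is higher, blue lower, and dots mark an adjusted p under 0.05. Cxcl1, Cxcl2, Ptgs2 and Atf3 are red from 1 h, Unc93b1 is blue at 6 h (-0.84) and red at 72 h (2.89), and the interferon-induced genes are red at 72 h.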

How the data were processed

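RNA was sequenced from hearts of 18 mice in 6 groups of 3. According to the labels and the study's methods, the authors used cutadapt 1.18 for trimming, mapped reads to mm10 with HISAT2 2.1.0 and estimated expression with StringTie 1.3.4d, and deposited 1 table of FPKM with a row for each gene symbol and a column for each mouse. The annotation used is not given in the sources used here. Sample titles gave the groups, and 4 column names with misspellings were matched to their titles. FPKM were used as deposited. The table holds no counts, so the spread among 3 mice is the measure of precision.

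Genes that reached 1 FPKM in any mouse were tested with limma 3.58.1 (variance trend, R 4.3.3) on log2(FPKM + 1), each comparison on its own 6 mice, 2-sided, and p-values were adjusted over every gene of a comparison (Benjamini-Hochberg). Symbols whose values were all alike in a comparison got no p. The comparisons were the 5 times against sham and the 4 pairs of neighbouring times. The steps were checked on simulated data. Exact permutation tests and sequence searches were run in Python 3.11.15 (pandas 2.3.3, scipy 1.17.1, numpy 2.4.6), with matplotlib 3.10.9 for plots. Gene positions are from GENCODE on mm10 and promoters from RefSeq.

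The receptors and all gene lists (coreceptors, trafficking, adaptors, kinases and ligases, transcription factors, inhibitors, endogenous ligands, outputs, cell markers) were chosen with earlier results of these data known. All 10 receptors were named, and of each pathway list the called genes with the largest rise and fall at 6 h, 24 h and 72 h, further genes that account for small counts, and the 3 genes most correlated with each tested receptor. Ly96, Sarm1 and the genes called at 1 h were named after their values were seen. Alternatives were no filter or a filter on the mean, scaling to equal sums, by median of ratios or by quantiles, a fit of all mice together, a block for the replicate number, no variance trend, a smaller pseudocount (0.1) and leaving out each mouse.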

Additional observations from a re-analysis of the deposited data

Results flagged for a closer look

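Of the differences between neighbouring times, 10 passed the test, so that the distance from sham differed between the times. On the log2(FPKM + 1) scale in limma, Tlr1 was higher by 0.49 at 6 h than at 1 h, by 0.92 at 24 h than at 6 h and by 1.35 at 72 h than at 24 h. Tlr4 was higher by 1.07 at 6 h than at 1 h. Tlr9 was higher by 0.63 at 24 h than at 6 h and by 2.44 at 72 h than at 24 h. From 24 h to 72 h Tlr7 was higher by 2.16, Tlr8 by 2.05, Tlr13 by 1.50 and Tlr3 by 0.70. Each of these had all 3 mice of the later time above all 3 of the earlier time. They were picked by a test on the same values, so this adds no support. The share of all genes apart between neighbouring times was not counted. The calls up to 24 h and that of Tlr13 were lost without single mice, as given with those results.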

How the results depend on the processing

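All 9 tested receptors were called higher at 72 h than in sham mice in every alternative that tested them except Tlr3 under quantile normalization, and no log2 fold change with a call reversed. The 3 calls at 6 h became 1 without the filter, 1 with all 18 mice in one fit and 1 with the replicate block, and 0 to 4 when each mouse was left out. The 6 calls at 24 h became 2 to 8 when each mouse was left out, with 2 without the first sham mouse. The 2 calls from 1 h to 6 h became 1 with the replicate block and 0 to 4 without single mice. The 2 calls from 6 h to 24 h became 0 without the filter, under median-of-ratios scaling, under quantile normalization and with the replicate block, 4 with all mice in one fit, and 0 to 2 without single mice. The cause was not tested. Replicate numbers did not pair the mice. Of 45 pairs of mice with the same number, 5 had deviations from the group means that correlated above 0.1 (range -0.33 to 0.41). With 3 mice a group and FPKM under 1 in most sham mice, small differences of the low receptors were not detectable, and the number of fragments behind them is unknown.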

Other observations

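Markers of other cells of the heart are given as values, without explanation. At 72 h all 8 fibroblast markers were called higher than in sham mice, and 5 of 8 endothelial markers were called lower and none higher, against 53.1% of all genes called higher and 24.2% lower. Of 6 mural cell markers 2 were higher and 3 lower, and of 4 tested dendritic cell markers 2 were higher and 2 lower. All 7 monocyte markers (Ly6c2, Ccr2, Plac8, Chil3, F13a1 and the matrix genes Fn1 and Vcan) were higher at 24 h and 72 h. At 24 h 26.2% of all genes were called higher. Lymphocyte markers were few above the filter, with 2 of 2 tested B cell markers, 1 of 1 T cell marker and 1 of 1 NK cell marker higher at 72 h. Of 3 tested erythroid markers 1 was lower at 72 h. All 8 cardiomyocyte markers were lower at 72 h, 5 at 24 h and 2 at 6 h. Of all genes tested, 11.4% were called lower at 24 h and 16.8% at 6 h.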
